A study of Mus musculus with 2 samples.

Results

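Piezo and TRP mechanosensitive channels were followed through 6 genes, Piezo1, Piezo2, Trpv2, Trpv4, Trpm7 and Trpc6, which were taken by symbol from the 32285 genes listed in the count tables. Each symbol stood under a single gene ID, and all 6 genes had counts in both libraries, so none was lost to a filter. The study injected 10 µL of PBS or of complete Freund's adjuvant into the temporomandibular joints (TMJs, the jaw joints) of both sides in WT C57BL/6 mice. The adjuvant (CFA, 5 mg/mL) is an oil emulsion of killed mycobacteria that inflames a joint. The joints were taken 3 weeks later for single-cell RNA sequencing, and the sample labels give an age of 8 to 10 weeks. The study's methods describe female C57BL/6J mice injected at 8 weeks of age, 3 animals a group. Condyle, disc, temporal bone and the attached muscle and ligament were digested together, and CD45+ immune cells were partly removed before the run. The files hold 1 PBS library and 1 CFA library, each from pooled cells, so the difference between them has no replicate check and carries no p-value. The question was in which joint cells these channels are found and at what level, without and with CFA.

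Mechanosensitive channels turn a push or stretch of the cell membrane into an ion current. Piezo1 and Piezo2 are large channels that membrane tension opens directly. Piezo1 is known for sensing blood flow in vessel walls and load in cartilage and bone, and Piezo2 for touch and body position in sensory neurons and Merkel cells. Trpv4 is a calcium channel that answers swelling, warmth and lipid products and is best known in cartilage, where inherited mutations cause skeletal disease. Trpv2 answers swelling and stretch and is studied in muscle and in phagocytes. Trpm7 joins a magnesium and calcium channel to a kinase and is found in most cells. Trpc6 is opened by diacylglycerol downstream of G protein receptors, is known from vascular smooth muscle and kidney podocytes, and has been linked to stretch through those receptors.

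The tables list UMIs (unique molecular identifiers, each standing for a captured RNA molecule) per gene and cell barcode. Cells were kept with at least 500 genes, at most 10% mitochondrial UMIs and at most 1% hemoglobin UMIs, which left 2667 of 7671 PBS barcodes and 4014 of 5709 CFA barcodes, with medians of 7022 and 6509.5 UMIs. The hemoglobin limit alone took out 3178 PBS and 339 CFA barcodes that passed the others. The libraries shared 10 barcode sequences, 2 of them among kept cells. Cells fell into 36 clusters, built without the channel genes, of which 29 were named in 15 classes from marker genes and 7 stayed unnamed (229 PBS and 479 CFA cells). The neuron marker list (Snap25, Tubb3, Elavl4, Prph, Scn9a, Scn10a, Calca and Syt1) came to 233 UMIs in the PBS library, with Scn10a at 0, and to 4177 UMIs in the CFA library, of which 2883 lay in erythroid-like cells against 14 in the PBS library. No cluster was neuron-like or Merkel-like, and Atoh1, which defines Merkel cells, was at 0 in both libraries.

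A level below, in CPM, is the gene's UMIs per 1000000 UMIs, summed over the cells of a class in a library. Each 95% interval is an exact Poisson interval for a level, an exact binomial interval conditional on the sum of counts for a ratio, or a Clopper-Pearson interval for a share, and each covers counting error only. A count of 0 is given with the limit of 3 counts of the total, which is below the upper bound of the 95% intervals. For CFA Piezo2 in chondrocyte-like cells the limit is 1.55 CPM and the Poisson bound 1.90 CPM. For a share of 0 of 67 cells the limit is 4.48% and the Clopper-Pearson bound 5.36%. UMIs come from the 3′ end and are not divided by length, so levels are compared between cells and not between genes. Over all kept cells, Piezo1 had 2771 PBS and 3628 CFA UMIs (102 and 81.7 CPM), Trpm7 had 2941 and 5091 UMIs (108 and 115 CPM), and Piezo2 had 1325 and 1831 UMIs (48.7 and 41.2 CPM). Trpv2 had 392 and 1275 UMIs (14.4 and 28.7 CPM), Trpv4 438 and 538 UMIs (16.1 and 12.1 CPM), and Trpc6 503 and 456 UMIs (18.5 and 10.3 CPM). Piezo1 and Trpm7 were spread over many cells, which reached 42.1% and 53.1% of the PBS cells, and 38.5% and 54.2% of the CFA cells, with at least 1 UMI. The others were sparse, down to Trpc6, which was seen in only 4.57% (PBS) and 3.94% (CFA) of the cells.

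**Figure D1:**
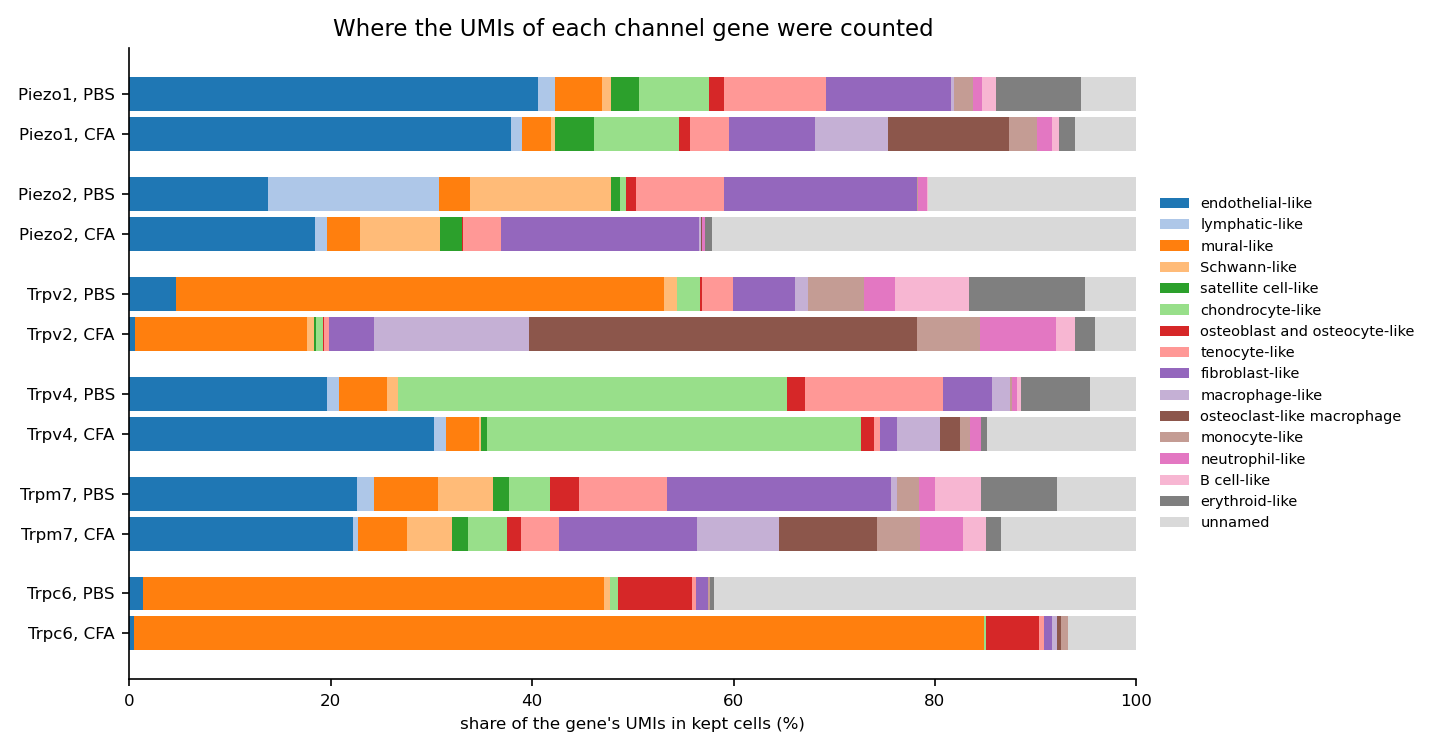
Share of the UMIs of each channel gene, in percent, that was counted in each cell class, with a bar for each gene and library and unnamed clusters in light grey. Endothelial-like cells held 40.6% of the PBS and 37.9% of the CFA Piezo1 UMIs, mural-like cells led Trpc6 in the CFA library, and unnamed clusters held 42.1% of the CFA Piezo2 UMIs.

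The 12 classes with at least 20 cells in each library set the genes apart from each other in how evenly they were used. Trpm7 was the most even, with the highest class only 2.86 times the lowest in the PBS library and 2.38 times in the CFA library. Piezo1 spanned 12.5-fold and 25.7-fold. Piezo2, Trpv4 and Trpc6 had at least 1 class at 0 UMIs in each library and Trpv2 had such a class in the PBS library, so their spans have no upper value. The highest class stood at 5.27 (PBS) and 3.84 (CFA) times the median class for Piezo2, at 16 and 37.1 times for Trpv4 and at 17.5 and 12.5 times for Trpv2. For Trpc6 the median class had only 1.17 and 0.408 CPM, from a few UMIs, so no such fold is given. The same class led in both libraries for 5 of the 6 genes: satellite cell-like for Piezo1, Schwann-like for Piezo2, mural-like for Trpv2 and Trpc6, and chondrocyte-like for Trpv4. Trpm7 was led by osteoblast and osteocyte-like cells in the PBS library and by endothelial-like cells in the CFA library.

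**Figure D2:**
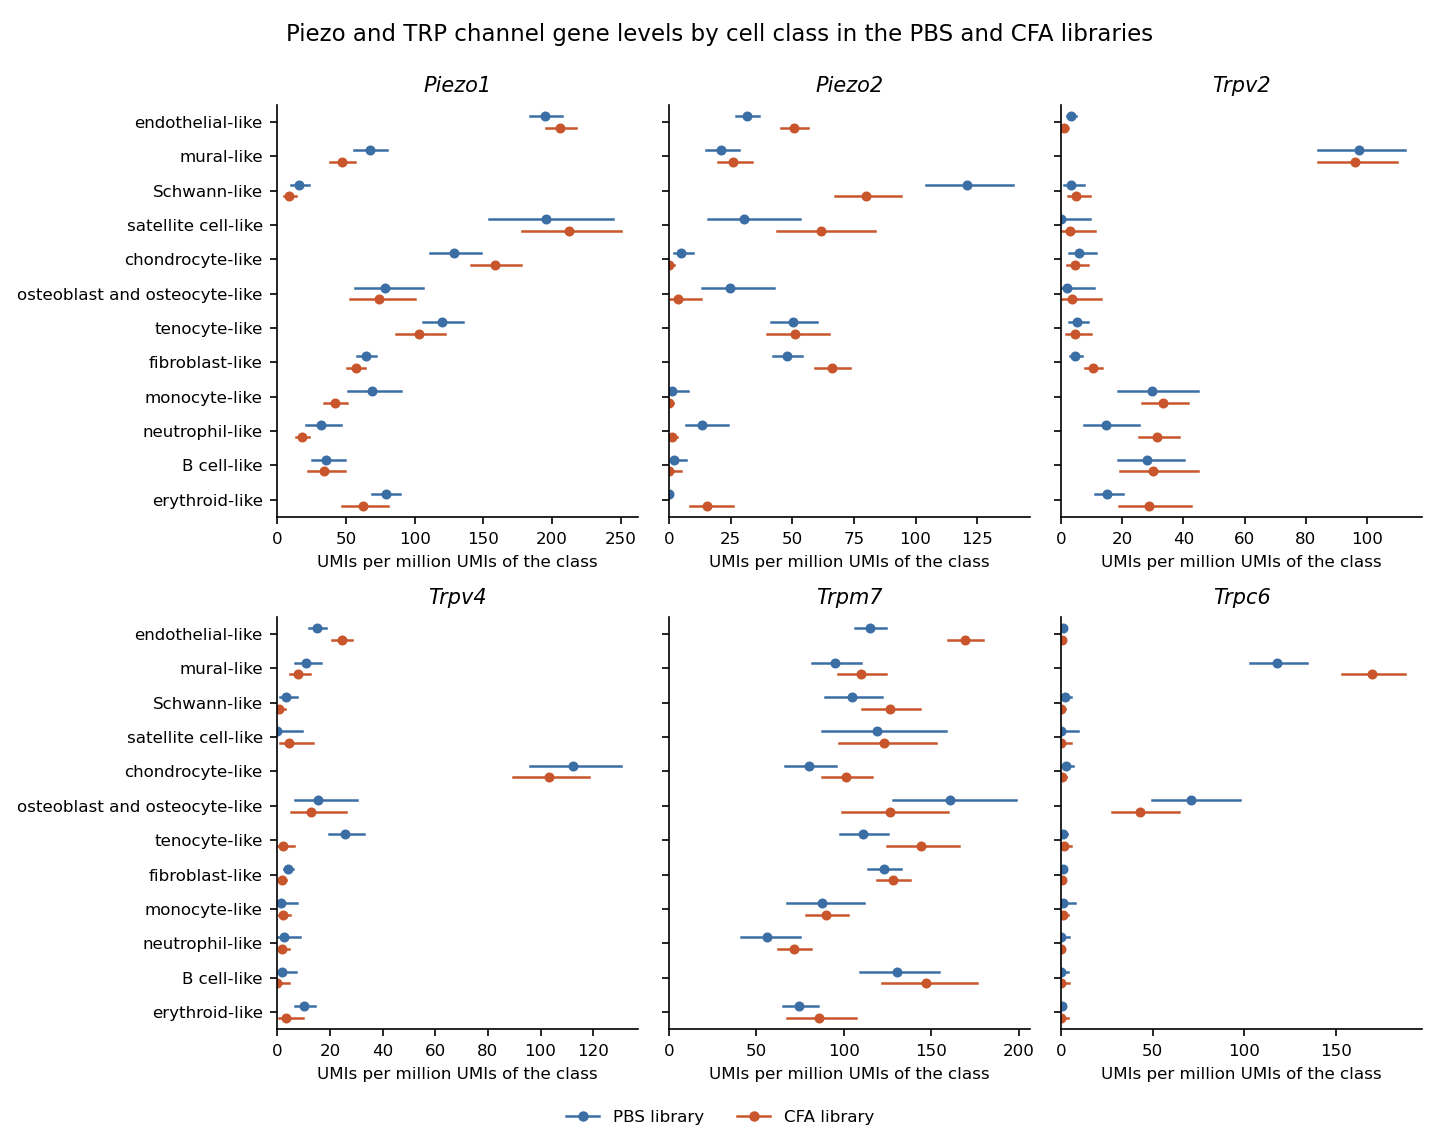
Level of each channel gene in CPM of the class (x axis, linear, with its own range in each panel) in 12 cell classes, PBS library in blue and CFA library in orange, with exact Poisson 95% intervals as bars. Trpc6 and Trpv2 share their highest class, the mural-like cells, while Trpm7 lies between 56.2 and 170 in all 12 classes.

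Piezo1 was highest in cells of the vessel wall lining, in muscle stem cells and in cartilage. Satellite cell-like cells, the stem cells of skeletal muscle, had 195 CPM in the PBS library (77 UMIs in 57 cells) and 212 CPM in the CFA library (138 UMIs in 90 cells). Endothelial-like cells had 195 CPM (1125 UMIs in 703 cells) and 206 CPM (1375 UMIs in 957 cells). These leading classes did not differ beyond their counting intervals in either library. Endothelial-like cells made up 26.4% of PBS and 23.8% of CFA cells and so carried more of the Piezo1 UMIs than of the cells. Lymphatic-like cells, only 18 PBS and 12 CFA cells, had 170 and 227 CPM from 45 and 39 UMIs. Chondrocyte-like cells followed with 129 CPM (194 UMIs) and 158 CPM (307 UMIs), and tenocyte-like cells, the cells of tendon and ligament, with 120 CPM (280 UMIs) and 103 CPM (139 UMIs). The intervals of chondrocyte- and tenocyte-like cells overlapped in the PBS library and were apart in the CFA library. Osteoblast and osteocyte-like cells were at 78.3 and 74.1 CPM, fibroblast-like cells at 64.6 and 57.2 CPM, and cluster 18 at 68.7 and 42.0 CPM, a middle group whose PBS intervals overlapped. Cluster 18 is drawn as monocyte-like in the plots, but the progenitor genes Prtn3, Ctsg, Mpo and Elane led it ahead of the monocyte markers Ly6c2, F13a1, Ccr2 and Plac8, so it is called by its number. B cell-like cells were at 35.8 and 33.9 CPM, neutrophil-like cells at 31.7 and 17.7 CPM, and Schwann-like cells were lowest at 15.6 CPM (24 UMIs in 308 cells) and 8.26 CPM (15 UMIs in 375 cells).

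Within the endothelial-like class Piezo1 was present in each named subtype, while cluster 0 (183 PBS and 217 CFA cells) was given no subtype. Plvap venular cells had 228 and 208 CPM, Car4 capillary cells 192 and 224 CPM, and arterial cells 163 and 175 CPM in the PBS and the CFA library. Arterial cells were the lowest of these subtypes in both libraries, and the order of the other subtypes differed between the libraries. The CFA to PBS ratio of the whole class was 1.06 (0.975 to 1.14), the narrowest interval of any channel and class here, and that of satellite cell-like cells was 1.09 (0.816 to 1.45). After each cell was thinned at random to 1000 UMIs, the satellite ratio was 3.68, from 4 of 57 PBS and 19 of 89 CFA cells with a UMI. The myeloid classes that were nearly absent from the PBS library had moderate Piezo1 in the CFA library: 61.1 CPM in macrophage-like cells (261 UMIs in 309 cells, against 9 UMIs in 18 PBS cells) and 46.8 CPM in osteoclast-like macrophages (436 UMIs in 273 cells, against 1 PBS cell).

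Mural-like cells, the smooth muscle cells and pericytes around vessels, had 67.2 CPM of Piezo1 in the PBS library (131 UMIs) and 46.7 CPM in the CFA library (106 UMIs), a ratio of 0.696 (0.534 to 0.906). The lower CFA level lay in cluster 11, at 83.4 and 31.9 CPM, while pericyte-like cluster 20 stood the other way at 43.2 and 84.7 CPM, with 17 of its 54 CFA UMIs in a single cell. Endothelial markers were read in the same cells. All 7 endothelial markers were present in mural-like cells, with a sum of 1273 CPM in the PBS and 575 CPM in the CFA library, 1794 and 512 CPM in cluster 11, and 504 and 737 CPM in cluster 20. The 40 PBS and 30 CFA mural-like cells with at least 5 endothelial-marker UMIs held 60 and 63 of the Piezo1 UMIs. Without them the levels were 56.7 and 24.4 CPM and the ratio 0.431. The part of endothelial markers in the Piezo1 difference was not tested. In neutrophil-like cells the Piezo1 ratio of 0.558 (0.343 to 0.928) stood at 1.06 without such cells, of which 10 PBS cells held 15 of the 26 UMIs.

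Piezo2 was a gene of nerve sheath, of lymphatic and venular vessel lining and of parts of the connective tissue, and it was low in cartilage and in most blood cells. Schwann-like cells, which wrap nerve fibres, had 121 CPM in the PBS library (186 UMIs in 308 cells) and 79.9 CPM in the CFA library (145 UMIs in 375 cells). Both values were the highest of the 12 classes, and the CFA interval (67.4 to 94.0) overlapped that of fibroblast-like cells (59.4 to 73.2). The ratio was 0.661 (0.528 to 0.825) and all 3 larger Schwann-like clusters stood in that direction: 96.0 and 68.1 CPM in cluster 3 (with Cntf and Ncmap among its leading genes), 119 and 75.2 CPM in cluster 13, and 212 and 131 CPM in the nonmyelinating cluster 27. Among these clusters both levels were thus highest in nonmyelinating cells. Neuron markers in cluster 27 came to 16.3 CPM in the PBS library, with 6 of 8 at 0, and to 1366 CPM in the CFA library, with Scn10a and Calca at 0. A single CFA cell there had at least 10 neuron-marker UMIs and held 2 of the 145 Schwann Piezo2 UMIs, and without it cluster 27 was at 162 CPM and the class at 81.6 CPM. With the mitochondrial limit at 20% the Schwann ratio was 1.06, and with no hemoglobin limit it was 0.924.

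A share of cells with a UMI grows with depth, so each cell was thinned to 1000 UMIs, which left out 55 PBS and 129 CFA cells that had fewer. Piezo2 was then seen in 31 of 300 PBS Schwann-like cells (10.3%) and in 22 of 362 CFA cells (6.08%), against 29.2% and 18.7% as counted. Neutrophil-like cells, taken as a class that should lack the gene, had it in 0 of 67 PBS cells, which allows a share of up to 4.48%, and in 1 of 336 CFA cells (0.298%). The median depths were 3832 and 3433 UMIs in Schwann-like cells and 8093 and 4492 UMIs in neutrophil-like cells. As counted, neutrophil-like cells held 11 PBS and 4 CFA Piezo2 UMIs, in 8.45% and 1.14% of their cells. The Schwann-like shares were above these at lower depth.

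The highest Piezo2 levels lay in small clusters. Lymphatic-like cells, marked by Prox1, Lyve1, Mmrn1 and Ccl21a, had 852 CPM in the PBS library (225 UMIs in 18 cells) and 134 CPM in the CFA library (23 UMIs in 12 cells). The most that a single cell held was 50 and 10 of these, and all 8 neuron markers were at 0 in both libraries. An unnamed cluster led by Dok6, Gpc5, Plppr1 and Col25a1 (cluster 25, 37 PBS and 85 CFA cells) had 519 CPM (219 UMIs) and 627 CPM (751 UMIs). A single PBS cell held 91 of its UMIs, and without the top cell of each library the levels were 324 and 611 CPM. After thinning, 54.1% of its PBS cells and 47.1% of its CFA cells kept a Piezo2 UMI, the highest shares of any channel in a cluster of at least 20 cells in each library. A second unnamed cluster led by Tenm2, Cldn1 and Sfrp5 (cluster 33, 13 and 8 cells) had 549 CPM (44 UMIs) and 370 CPM (15 UMIs).

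Endothelial-like cells showed Piezo2 in a single branch. Plvap venular cells (cluster 5) had 94.6 CPM in the PBS library (149 UMIs in 117 cells) and 100 CPM in the CFA library (286 UMIs in 194 cells). Car4 capillary cells had 7.72 and 9.0 CPM, and arterial cells 5.92 and 26.2 CPM, where 28 of the 29 CFA UMIs lay in 1 cell. Venular cells thus held 149 of the 182 PBS and 286 of the 337 CFA endothelial Piezo2 UMIs, at levels over 10 times those of capillary cells in each library. Lymphatic markers in cluster 5 came to 99.1 and 66.1 CPM, with Ccl21a at 0, against 13139 and 10150 CPM in lymphatic-like cells. The ratio of the whole endothelial-like class was 1.60 (1.33 to 1.93), that of venular cells alone was 1.06 (0.864 to 1.3), and venular cells made up 117 of 703 PBS and 194 of 957 CFA cells of the class. The class ratio was 1.0 as a mean over cells and 0.804 after thinning.

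Fibroblast-like cells had 47.8 CPM of Piezo2 (254 UMIs) and 66.0 CPM (360 UMIs), a ratio of 1.38 (1.17 to 1.63) that turned below 1 with no hemoglobin limit (0.855), with a mitochondrial limit of 20% (0.886) and after thinning (0.970). Sublining fibroblast-like cells (cluster 2), which lie under the synovial surface, stood at 68.4 CPM (134 UMIs) and 174 CPM (228 UMIs), Pi16 adventitial cells at 15.2 and 31.2 CPM, and cluster 16 (led by Angptl1, Cilp and Myoc) at 58.9 and 34.1 CPM. A few cells carried much of this. In the CFA library 3 sublining cells with at least 10 neuron-marker UMIs held 97 of the 228 Piezo2 UMIs, and the top cell, with 57 Piezo2 UMIs, had 107 neuron-marker UMIs and 0 fibroblast-marker UMIs. Neuron markers in this cluster came to 8.68 CPM in the PBS library, with Snap25, Elavl4, Scn9a and Scn10a at 0, and to 490 CPM in the CFA library, with none at 0. Without those cells the cluster was at 108 CPM (90.2 to 128) in the CFA library and the ratio of the class was 1.03. In cluster 16 a single cell held 39 of 93 PBS UMIs and another 27 of 32 CFA UMIs.

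Tenocyte-like cells had 50.1 CPM of Piezo2 (117 UMIs) and 51.2 CPM (69 UMIs), a ratio of 1.02 (0.747 to 1.39) that ran from 0.538 as a mean over cells to 1.76 with no hemoglobin limit, and pericyte-like cells had 49.5 CPM (39 UMIs) and 90.9 CPM (58 UMIs, of which 30 in 1 cell). Satellite cell-like cells had 30.4 CPM (12 UMIs in 57 cells) and 61.4 CPM (40 UMIs in 90 cells), with 0 cells of at least 10 neuron-marker UMIs. Osteoblast and osteocyte-like cells had 24.8 CPM (13 UMIs) and 3.62 CPM (2 UMIs). Chondrocyte-like cells had 7 PBS UMIs and 0 CFA UMIs, which allows up to 1.55 CPM, and macrophage-like cells had 0 PBS UMIs and 4 CFA UMIs. Chondrocyte-like cells were thus high in Piezo1 and low in Piezo2, and Schwann-like cells high in Piezo2 and low in Piezo1, in both libraries. Erythroid-like cells had 0 PBS and 14 CFA Piezo2 UMIs (15.6 CPM), of which 12 lay in 1 cell with 2236 neuron-marker UMIs. Neutrophil-like cells had 13.4 CPM in the PBS library, where 8 of the 11 UMIs lay in cells with at least 5 endothelial-marker UMIs, and 1.31 CPM in the CFA library.

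**Figure D3:**
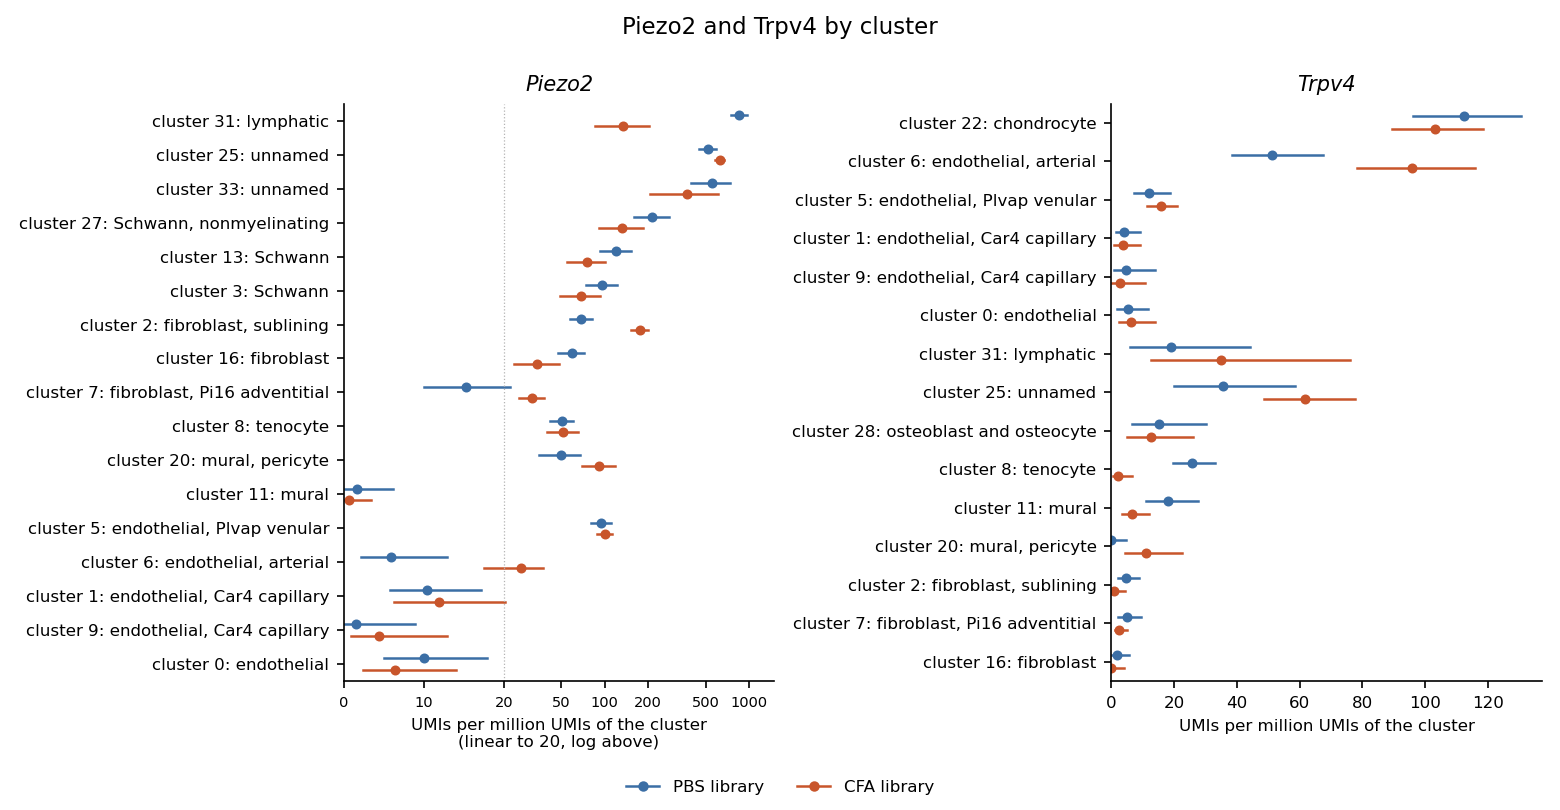
Levels of Piezo2 (left, linear to 20 and logarithmic above) and Trpv4 (right, linear) in CPM of the cluster, PBS library in blue and CFA library in orange, with exact Poisson 95% intervals. Piezo2 stands out in lymphatic, Dok6-led and Schwann-like clusters and in the Plvap venular branch, and Trpv4 in chondrocyte-like and arterial cells.

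Trpv4 was a gene of cartilage and arteries. Chondrocyte-like cells, marked by Col2a1, Acan and Hapln1, had 112 CPM in the PBS library (169 UMIs in 58 cells) and 103 CPM in the CFA library (200 UMIs in 88 cells). The ratio was 0.918 (0.745 to 1.13), and no other class of the 12 passed 25.7 CPM in either library. The chondrocyte-like intervals stood apart from those of all 11 other classes. A UMI was seen in 58.6% and 47.7% of chondrocyte-like cells as counted, and after thinning in 6 of 58 (10.3%) and 10 of 88 (11.4%). Neutrophil-like cells had 0 of 67 and 0 of 336 after thinning, which allows up to 4.48% and 0.893%, and 2.82% and 1.71% as counted. The median depths were 21999 and 16334 UMIs in chondrocyte-like cells and 8093 and 4492 UMIs in neutrophil-like cells. Thinned counts gave a chondrocyte ratio of 1.41.

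**Figure D4:**
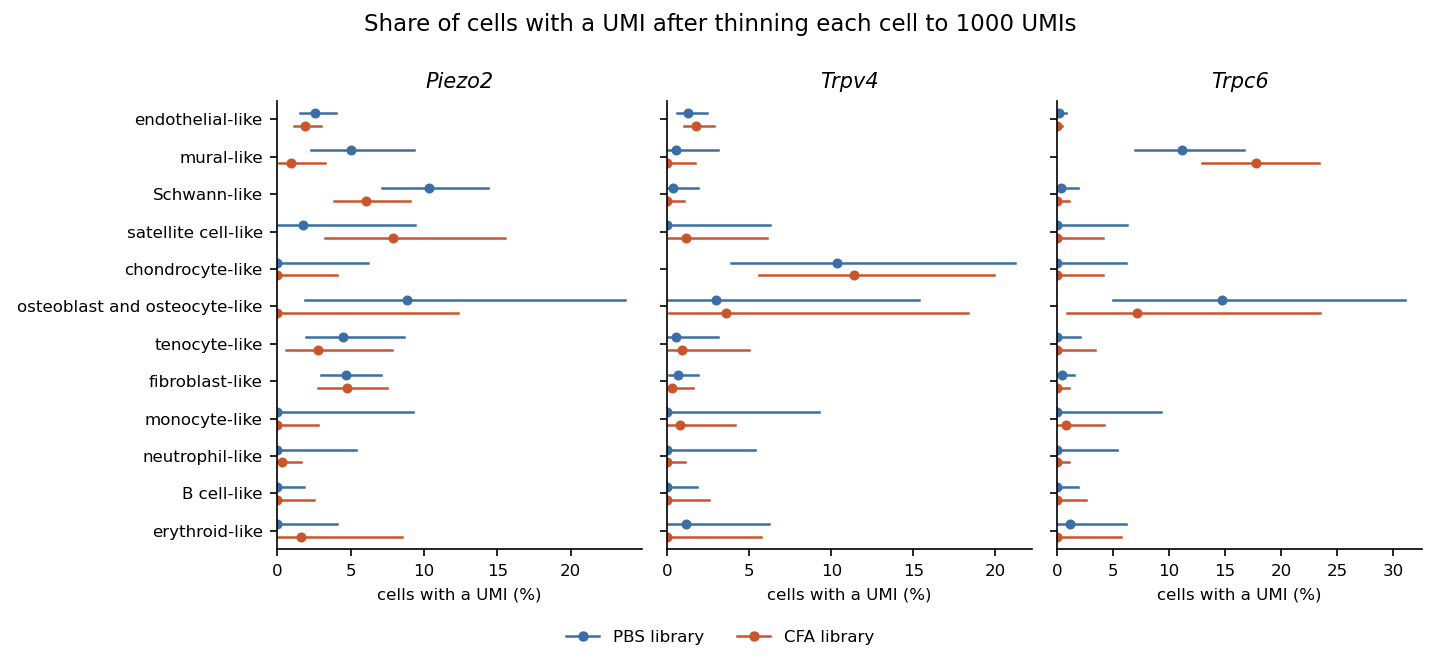
Share of cells with a UMI (%) of Piezo2, Trpv4 and Trpc6 after thinning each cell to 1000 UMIs, in 12 classes, PBS library in blue and CFA library in orange, with Clopper-Pearson 95% intervals. Trpc6 lies at 11.2% and 17.7% of mural-like cells and Trpv4 at 10.3% and 11.4% of chondrocyte-like cells, with neutrophil-like cells at 0 for both genes.

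Arterial endothelial-like cells (cluster 6, marked by Gja5, Sema3g and Fbln5) had 51.3 CPM of Trpv4 in the PBS library (52 UMIs in 127 cells) and 95.6 CPM in the CFA library (106 UMIs in 169 cells). Venular cells had 12.1 and 15.7 CPM and Car4 capillary cells 4.34 and 3.38 CPM, below the arterial intervals in both libraries. Within the endothelium Trpv4 and Piezo2 therefore led in different branches, Trpv4 in arterial and Piezo2 in venular cells. The arterial ratio was 1.86 (1.33 to 2.65), and the whole endothelial-like class, at 14.9 and 24.4 CPM, had a ratio of 1.64 (1.25 to 2.15). The Dok6-led cluster also had Trpv4, at 35.6 CPM (15 UMIs) and 61.8 CPM (74 UMIs).

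Outside these cells Trpv4 rested on few UMIs or few cells in most classes. Macrophage-like cells had 40.6 CPM in the PBS library (8 UMIs in 5 of 18 cells, 17.5 to 80.0) and 5.39 CPM in the CFA library (23 UMIs in 309 cells), and the PBS interval overlapped that of arterial cells. Lymphatic-like cells had 18.9 CPM (5 UMIs) and 35.0 CPM (6 UMIs). Tenocyte-like cells had 25.7 CPM in the PBS library (60 UMIs in 18 of 180 cells, 12 in the top cell) and 2.23 CPM in the CFA library (3 UMIs), a ratio of 0.0866 (0.0174 to 0.265). The 8 chondrocyte markers summed to 2231 CPM in PBS tenocyte-like cells, with none at 0, and to 1276 CPM in the CFA library, with Cnmd at 0, and the 7 endothelial markers to 207 and 26.7 CPM. The part of these markers in the Trpv4 difference was not tested, and the cells with at least 5 endothelial-marker UMIs held none of its UMIs. The ratio was 0.642 with no hemoglobin limit and 0.653 with a mitochondrial limit of 20%, neither past 2-fold. Thinning left 1 of 179 PBS and 1 of 109 CFA cells with a UMI, too few for a comparison. Fibroblast-like cells had 3.96 CPM (21 UMIs) and 1.65 CPM (9 UMIs), a ratio of 0.417 (0.168 to 0.951) that turned to 1.54 with classes set cell by cell from the markers. The mixed erythroid-like class had 10.1 CPM (30 UMIs) and 3.33 CPM (3 UMIs, all in 1 cell). Mural-like cells had 10.8 CPM (21 UMIs) and 7.94 CPM (18 UMIs), of which 21 and 17 lay in cells with at least 5 endothelial-marker UMIs.

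Trpv2 and Trpc6 were the channels of the mural-like cells. Trpv2 had 97.4 CPM there in the PBS library (190 UMIs in 179 cells) and 96.1 CPM in the CFA library (218 UMIs in 223 cells). The ratio was 0.987 (0.809 to 1.2), and the levels overlapped. Cluster 11, which carries the contractile genes Myh11 and Acta2, had 108 and 105 CPM, and pericyte-like cluster 20 had 81.3 and 73.7 CPM. Mural-like cells held 48.5% of the PBS but 17.1% of the CFA Trpv2 UMIs, and osteoclast-like macrophages held 38.5% of the latter.

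Trpc6 had 118 CPM in mural-like cells in the PBS library (230 UMIs) and 170 CPM in the CFA library (385 UMIs). The ratio was 1.44 (1.22 to 1.70), with cluster 11 at 109 and 175 CPM and the pericyte-like cluster at 131 and 155 CPM. After thinning, 20 of 179 PBS mural-like cells (11.2%) and 39 of 220 CFA cells (17.7%) kept a UMI, against 41.9% and 57.8% as counted. Neutrophil-like cells had 0 of 67 and 0 of 336, and also 0 UMIs as counted, at median depths of 8093 and 4492 UMIs against 9841 and 9079 UMIs in mural-like cells. Cells with at least 5 endothelial-marker UMIs held 54 of the 230 and 70 of the 385 UMIs. The levels without them were 141 CPM (121 to 163) and 179 CPM (160 to 200), and these intervals overlapped. The ratio ran from 1.27 to 1.83 over the alternatives, with 1.83 under no hemoglobin limit and 1.78 without integration.

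The promoters of these mural channels are shown with that of Trpm7, the gene read in nearly every class, since they differ in base content, and Trpc6 also in the motifs searched. They run from 250 bases before to 50 bases after the RefSeq transcript start on GRCm38.p6, 5′ to 3′ on the gene's strand. Windows were taken by symbol for 5 of the 6 genes, and Piezo2 was left out of the promoter search. Capitals mark a CArG box, a GC box (GGGCGG) or a TATA box (TATAAA), searched on both strands.
Trpc6, chr9:8543892-8544191, plus strand: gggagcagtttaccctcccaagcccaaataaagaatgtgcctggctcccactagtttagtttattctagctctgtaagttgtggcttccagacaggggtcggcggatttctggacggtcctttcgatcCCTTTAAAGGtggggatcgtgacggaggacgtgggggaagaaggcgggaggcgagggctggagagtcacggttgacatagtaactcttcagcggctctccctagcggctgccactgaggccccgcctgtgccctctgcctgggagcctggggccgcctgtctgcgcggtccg
Trpv2, chr11:62574236-62574535, plus strand: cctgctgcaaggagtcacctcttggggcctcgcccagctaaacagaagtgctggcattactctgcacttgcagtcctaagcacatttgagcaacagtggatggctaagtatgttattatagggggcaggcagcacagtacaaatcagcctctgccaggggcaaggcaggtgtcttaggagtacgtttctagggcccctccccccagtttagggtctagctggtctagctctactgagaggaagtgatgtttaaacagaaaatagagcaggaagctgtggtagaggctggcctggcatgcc
Trpm7, chr2:126876212-126876511, minus strand: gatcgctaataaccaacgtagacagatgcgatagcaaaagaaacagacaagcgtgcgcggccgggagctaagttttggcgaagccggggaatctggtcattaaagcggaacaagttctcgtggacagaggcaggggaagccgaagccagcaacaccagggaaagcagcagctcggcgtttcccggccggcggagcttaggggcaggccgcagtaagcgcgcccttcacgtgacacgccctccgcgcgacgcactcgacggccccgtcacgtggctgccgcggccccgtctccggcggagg
The Trpc6 window held 1 CArG box, the sequence known to be bound by serum response factor at smooth muscle genes, a motif present in 1.63% of 32851 mouse promoter windows of this length. The Trpv2 and Trpm7 windows held none of the motifs searched. The Trpv2 window had 2 CpG dinucleotides where the median promoter had 7. The Trpc6 window had 17 CpG and the Trpm7 window 35. Piezo1 (chr8, 34 CpG) had 1 GC box and 1 TATA box and Trpv4 (chr5, 30 CpG) had 3 GC boxes, motifs found in 35.7% (GC box) and 13.6% (TATA box) of all windows. The CACCC box (57.5% of windows) matched 1 time for Piezo1 and 5 times for Trpv4, and the SOX core ACAAT (31%) matched in none of the 5. A match is a description of letters and not a bound site.

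Beyond the mural-like cells Trpv2 was found in leukocytes. Cluster 18, with genes of progenitors and of monocytes, had 29.6 CPM (22 UMIs) and 33.3 CPM (80 UMIs), and B cell-like cells 28 and 30.2 CPM. Osteoclast-like macrophages, which carry Acp5, Dcstamp and Mmp12, had 52.7 CPM in the CFA library (491 UMIs in 273 cells) and were 1 cell in the PBS library. Macrophage-like cells had 45.9 CPM in the CFA library (196 UMIs in 309 cells) and 25.4 CPM in the PBS library (5 UMIs in 18 cells). The level over all kept cells was higher in the library with more of these myeloid cells, while mural-like cells were level. The part of cell numbers in this difference was not tested. Neutrophil-like cells had 14.7 CPM (12 UMIs in 71 cells) and 31.5 CPM (96 UMIs in 350 cells). Immature neutrophil-like cells (47 PBS and 149 CFA cells, led by Camp, Ngp and Ltf) had 3.20 and 19.6 CPM. Mature ones (17 and 180 cells, with Retnlg and Cxcr2 among their leading genes) had 57.0 and 74.5 CPM. The class thus held a different mix of both in each library, and the part of this mix in its level was not tested. Endothelial-like cells, by contrast, had almost no Trpv2, with 18 UMIs in 703 PBS cells (3.12 CPM) and 7 UMIs in 957 CFA cells (1.05 CPM).

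Trpc6 had a second site in bone. Osteoblast and osteocyte-like cells, marked by Bglap and Phex, had 70.7 CPM (37 UMIs in 35 cells) and 43.4 CPM (24 UMIs in 28 cells), a ratio of 0.614 whose levels overlapped in their intervals. After thinning, 5 of 34 PBS cells (14.7%) and 2 of 28 CFA cells (7.14%) kept a UMI. Every other class of the 12 was at or below 2.66 CPM in both libraries, and B cell-, neutrophil- and satellite cell-like cells were at 0. An unnamed cluster led by Siglech, Stat4 and Flt3 (cluster 24, 44 and 88 cells) had 405 CPM in the PBS library, but 163 of its 200 UMIs lay in 1 cell, which alone held 163 of the 503 Trpc6 UMIs of the library. Without the top cell of each library that cluster was at 89.5 and 27.6 CPM.

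Trpm7 was read in all 12 classes in both libraries, and its level was higher in the CFA library in most of them. The 12 classes ran from 56.2 CPM in neutrophil-like cells to 161 CPM in osteoblast and osteocyte-like cells in the PBS library, and from 71.2 CPM in neutrophil-like cells to 170 CPM in endothelial-like cells in the CFA library. Most neighbours in this order had overlapping intervals, and neutrophil-like cells were last in both. Osteoblast and osteocyte-like cells had 161 CPM (84 UMIs) and 127 CPM (70 UMIs), a ratio of 0.788 (0.566 to 1.10), which stood at 1.11 with classes set cell by cell. Endothelial-like cells had 115 CPM (664 UMIs) and 170 CPM (1132 UMIs), a ratio of 1.47 (1.34 to 1.62). All 3 named subtypes, which leave out cluster 0, were higher in the CFA library, at 114 and 197 CPM in Car4 capillary, 109 and 161 CPM in arterial and 118 and 140 CPM in venular cells. The widest gap was in the Dok6-led cluster, at 133 CPM (56 UMIs) and 394 CPM (471 UMIs). Osteoclast-like macrophages had 53.6 CPM in the CFA library, the lowest Trpm7 level of any named class there.

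Of the 60 pairs of channel and class in the 10 classes with at least 50 cells in each library, 39 had at least 20 UMIs over both libraries and were compared. Their median CFA to PBS ratio was 1.08, 24 of 39 were above 1, and 18 of the 39 intervals left out 1. The same shares over all genes are not given, so these counts have no background and are descriptions only. The median ratio of all genes compared ran from 0.899 in neutrophil-like to 1.15 in erythroid-like cells. Past 2-fold stood 7 pairs (17.9%), 3 higher and 4 lower in the CFA library, where 13.8% of all gene and class pairs under the same floor were past 2-fold, so that the share among the channels was near the background. The background differed between classes, and in the classes with no channel past 2-fold it was 8.59% either way in B cell-like cells (3.34% higher and 5.25% lower), 8.59% in mural-like cells (3.8% and 4.79%), 10.9% in Schwann-like cells (7.74% and 3.16%) and 12.6% in chondrocyte-like cells (6.06% and 6.49%). Trpm7 was above 1 in 10 of 10 classes (1.03 to 1.47), although satellite cell-, erythroid-, mural- and neutrophil-like ratios were below 1 under at least 1 other setting. In erythroid-like cells the Trpm7 ratio of 1.15 was that of the median gene of the class (1.15). Piezo1 was above 1 in 3 of 10 classes (0.530 to 1.23) and past 2-fold in none.

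The pairs higher by 2-fold were Trpv2 in fibroblast-like cells (2.31, interval 1.41 to 3.90) and in neutrophil-like cells (2.15, 1.18 to 4.30) and Piezo2 in satellite cell-like cells (2.02, 1.04 to 4.23). Of all genes compared, 7.46% were at least 2-fold higher in fibroblast-like, 8.13% in neutrophil-like and 8.92% in satellite cell-like cells. The neutrophil value was 1.53 after thinning and 1.55 as a mean over cells. The satellite value was higher still in several alternatives, at 2.75 without the top cell of each library and 5.12 after thinning (1 of 57 PBS and 7 of 89 CFA cells with a UMI). The fibroblast value rested on 24 and 57 UMIs, of which 11 of the 57 lay in the 3 neuron-marker cells, and it was 1.90 without these cells, 1.19 with classes set cell by cell and 1.04 after thinning. The pairs lower by 2-fold were Trpv4 in tenocyte-like (0.0866), erythroid-like (0.331, 0.0647 to 1.06) and fibroblast-like cells (0.417) and Trpv2 in endothelial-like cells (0.336, 0.119 to 0.843). Of all genes, 6.88%, 7.46%, 5.5% and 6.08% were at least 2-fold lower in these classes. In the other direction, 3.91% were higher in tenocyte-like and 5.05% in endothelial-like cells and 18.1% in erythroid-like cells, while 6.75% were lower in satellite cell-like and 15% in neutrophil-like cells. Trpv2 thus stood in opposite directions in fibroblast- and endothelial-like cells, at low levels in both, and the endothelial value was 0.974 with classes set cell by cell. The 2883 neuron-marker UMIs of erythroid-like CFA cells given above, in which no marker was at 0, lay mostly in 1 cell (2236), and 2 of 73 cells had at least 10, against 14 UMIs in PBS cells with 6 of 8 markers at 0. The erythroid-like class also differed between the libraries in depth, with median UMIs of 18038 (PBS) and 2218 (CFA). Beside Car1 and Car2 it was led by Obp1a, Obp1b and Mucl2, an odorant-binding protein pair and a mucin-like gene, and with 50 principal components a cluster of 118 cells led by Obp1a and Mucl2 stood apart from 43 erythroid-like cells. The part of these differences in the erythroid-like ratios was not tested. The cell that held the 3 CFA Trpv4 UMIs had 0 neuron-marker UMIs.

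**Figure D5:**
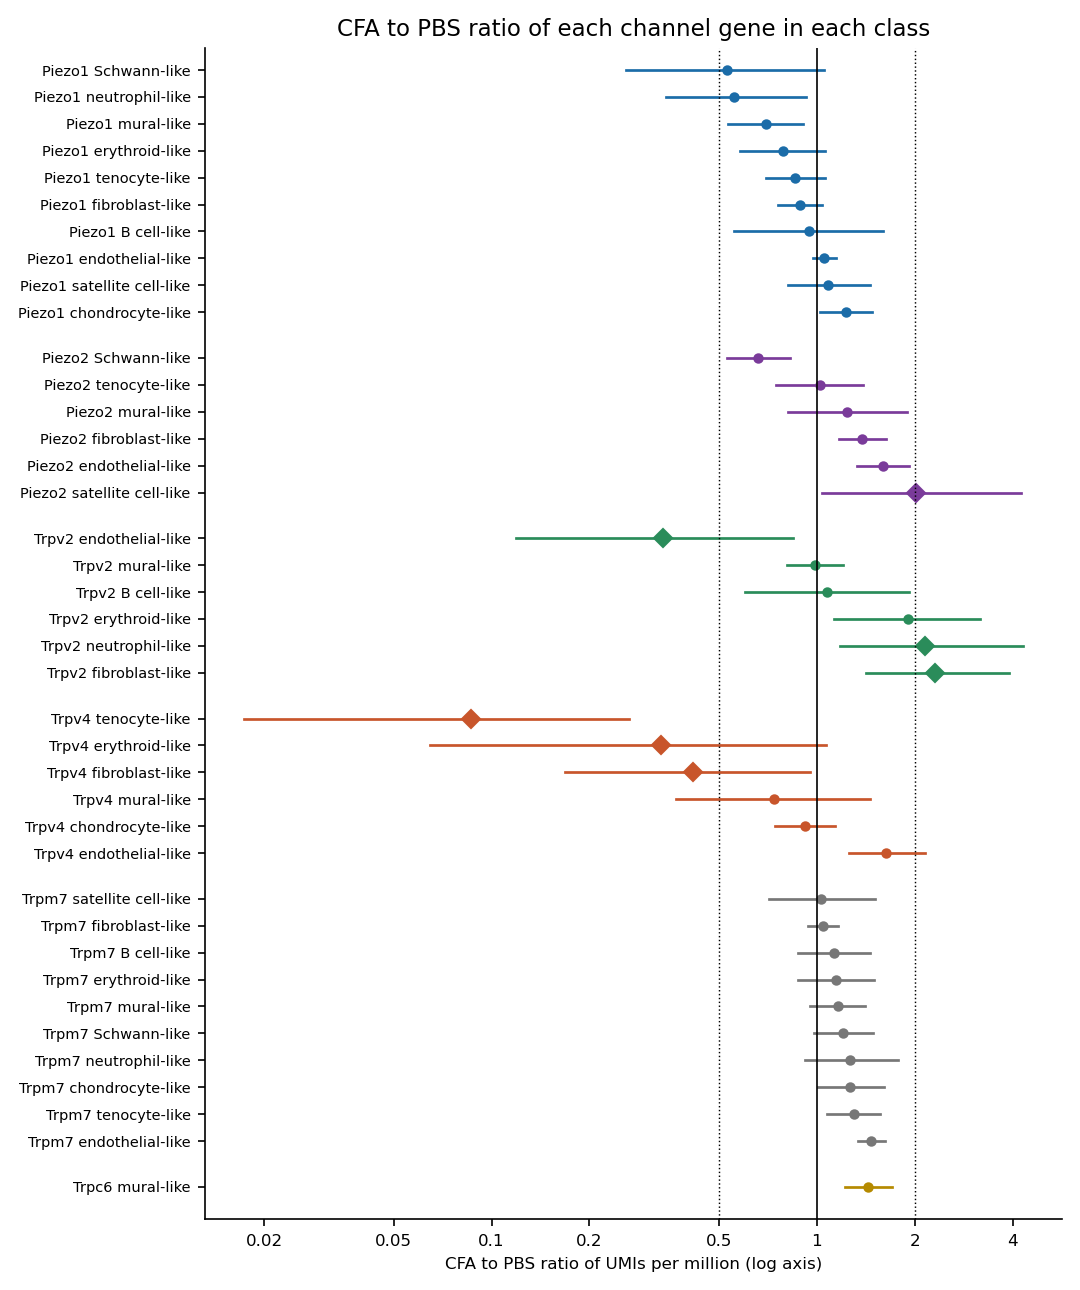
CFA to PBS ratio of the level of each channel gene in each class compared (x axis, logarithmic), for 39 pairs with at least 20 UMIs, with 95% counting intervals as bars, diamonds for the 7 pairs past 2-fold and dotted lines at 0.5 and 2. Trpm7 lies above 1 in all 10 classes, and Trpv4 in tenocyte-like cells is the lowest at 0.0866.

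Other genes of the mechanosensing machinery were read in the same classes from lists of relatives and partners, and their counts past 2-fold stand against 13.8% of all gene and class pairs. Of the other TRPV genes, 1 of 4 reached the floor, in 2 pairs of which 1 was 2-fold higher: Trpv1, the capsaicin receptor of pain neurons, with 0 PBS and 37 CFA UMIs in erythroid-like cells, 30 of them in 1 cell. Of the other TRPM genes, 20 pairs had 3 higher and 2 lower. Trpm3 was among the higher in erythroid-like cells (8.06 and 100 CPM, 67 of 90 CFA UMIs in 1 cell), where 18.1% of all genes were at least 2-fold higher. It was high in Schwann-like cells (242 and 313 CPM) and lower in mural-like cells (49.7 and 18.1 CPM). Of Trpa1, the lysosomal TRPML channels and the polycystins, 29 pairs had 1 higher and 3 lower. Pkd2, a polycystin channel of cilia, stood at 190 and 234 CPM in fibroblast-like cells.

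Among channels of other families that are opened by force, 8 pairs of K2P potassium channels had 2 higher and 1 lower, again against 13.8% of all pairs past 2-fold. Kcnk2 (TREK-1) made up both of the higher pairs, in erythroid-like cells (11 and 31 UMIs) and in tenocyte-like cells, at 107 CPM (249 UMIs, 93 in 1 cell) and 229 CPM (308 UMIs, 131 in 1 cell). None of 20 TMEM63 and TMC pairs was past 2-fold, with Tmem63b at 68.2 and 68.3 CPM in Schwann-like cells. Other force-linked channels had 8 higher and 2 lower of 41 pairs, of which 3 of the higher lay in erythroid-like cells, with 2 neuron-marker cells in the CFA library. Among the higher was Panx1, a large-pore channel that releases ATP, at 20.5 and 53.6 CPM in fibroblast-like cells (2.61, 2.09 to 3.28). Asic2, an acid-sensing channel of neurons, stood at 4.90 and 184 CPM in fibroblast-like cells with 883 of 1001 CFA UMIs in 1 cell. Lrrc8a, a subunit of the volume-regulated anion channel, was at 177 and 198 CPM in endothelial-like cells.

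The partners of Piezo channels had 5 higher and 11 lower of 51 pairs, a larger share than the 13.8% of all pairs, with 2 of the higher in erythroid-like and 3 of the lower in neutrophil-like cells. Pecam1 and Cdh5, junction proteins through which endothelial cells sense flow, were at 1277 and 1370 CPM and at 1049 and 974 CPM in endothelial-like cells. The lower pairs of these genes lay in other classes, such as Cdh5 at 25 and 0.917 CPM in fibroblast-like cells, where the 7 endothelial markers summed to 177 CPM in the PBS and 19.8 CPM in the CFA library with Tie1 at 0 in the latter. The list of YAP and TAZ targets, genes switched on by force through those coactivators, had 5 higher and 11 lower of 54 pairs, also a larger share than 13.8%, with 4 of these in erythroid-like and 3 in neutrophil-like cells, where 25.6% and 23.1% of all genes were past 2-fold. Ccn2 was higher in chondrocyte-like cells (180 and 595 CPM, ratio 3.30, 2.89 to 3.78) and in fibroblast-like cells (59.5 and 168 CPM, 2.82), and Ccn1 was lower in endothelial-like cells (196 and 91.4 CPM, 0.467). The shear-responsive endothelial genes had 1 higher and 4 lower of 33 pairs, near the 13.8% of all pairs, with Klf2, a flow-induced transcription factor, at 1925 and 1579 CPM in endothelial-like cells. Of the 5 YAP and TAZ targets compared in chondrocyte-like cells, Ccn2 was the 1 past 2-fold higher, and their median ratio was 1.15. Trpv4 was highest in this class with a ratio of 0.918, and a link of Ccn2 to Trpv4 was not tested.

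Genes with the pattern most like each channel were taken by the Pearson correlation of log2(CPM + 10) over 26 points of class and library, among 13204 genes. Points of a library share its depth and background, and points of a class share its cell type, so the values are descriptions only. Trpc6 was most like Gucy1a1 (0.956), a subunit of the nitric oxide receptor guanylyl cyclase, Rtn4rl1 (0.917) and Gm13052 (0.913). Piezo2 was most like Hdgfl3 (0.938), Itih5 (0.887) and Mpdz (0.883), and Trpv4 most like Eps8l2 (0.872), the cartilage proteoglycan gene Snorc (0.865) and Syt8 (0.865). Trpm7 was most like Mga (0.889), Kansl3 (0.880) and Mkln1 (0.859), Trpv2 most like Fam110a (0.847), Kcnj2 (0.815) and Emd (0.790), and Piezo1 most like Spry1 (0.768), Lpin3 (0.755) and Btg3 (0.749). Between the channels the correlations ran from -0.488 (Piezo2 and Trpv2) to 0.518 (Piezo1 and Trpv4), and none of the channels was among the most similar genes of another.

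In the GRCm38 annotation Piezo1 lies on chr8 from 122481698 to 122551329, Piezo2 on chr18 from 63010213 to 63387183, Trpv2 on chr11 from 62574486 to 62600515, Trpv4 on chr5 from 114622152 to 114658421, Trpm7 on chr2 from 126791565 to 126876230 and Trpc6 on chr9 from 8544142 to 8680741. The genes run from 26.0 kb for Trpv2 to 377 kb for Piezo2. Ctu2 overlaps Piezo1 and the lincRNA Gm32014 overlaps Trpc6, both on the opposite strand and both counted, and no counted gene overlaps any of the 6 on its own strand.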

How the data were processed

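The authors sequenced pooled TMJ cells on the 10x 3′ platform, and the submitters' processing notes name Cell Ranger 7.0.1 and mm10. The authors deposited raw UMI counts per gene and barcode, with no normalization, for 1 PBS and 1 CFA library (51146169 and 53517206 UMIs). Whether intronic reads were counted is not given in the sources used here, and labels and methods differ on the kit version.

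From these counts, cells were filtered as stated above, normalized by sctransform and integrated in Seurat 5.3.0 (R 4.3.3) with 3000 genes, 200 principal components and resolution 1.5, leaving the channel genes and listed pathway genes out of the features. A cluster was named from at least 3 markers found in at least 25% of its cells and 2-fold above the others (10 CPM prior). It stayed unnamed where its median depth was under 0.333 of its library's with no own marker among its 10 leading genes. No doublet caller was applied, and an alternative left out the 5% highest Scrublet scores (scanpy 1.11.5). Levels, thinning to 1000 UMIs and intervals were computed in Python 3.11.15 (scipy 1.17.1). Scripts were tested on simulated data.

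With 1 library a group no test was possible. Pairs of gene and class were compared where both libraries had at least 50 cells and the gene at least 20 UMIs over both, and were called past 2-fold. Pathway genes were eligible to be named where a pair was past 2-fold with at least 50 UMIs, or where they were among the 2 highest levels of their list, and examples were chosen from these. Similar genes were the 3 with the highest correlation among genes with at least 200 UMIs. The lists were other TRPV and TRPM genes, TRPA, TRPML and polycystins, K2P, TMEM63 and TMC, other force-linked channels, Piezo partners, YAP and TAZ targets and shear-responsive genes, and a further list is not reported here. The channel genes and all lists were chosen with earlier results of these data known. Alternatives changed the cell limits, the normalization, the clustering, the classing, the scale and the floors, and 3 more, which left out the top cell, cells with neuron markers or cells with endothelial markers, were chosen after seeing the data.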

Additional observations from a re-analysis of the deposited data

Results flagged for a closer look

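Trpv2 stood past 2-fold in opposite directions in different classes, at CFA to PBS ratios of 2.31 in fibroblast-like and 2.15 in neutrophil-like cells and 0.336 in endothelial-like cells. Each was within 2-fold under at least 1 other setting, with the fibroblast ratio down to 1.04 (and 1.90 without 3 CFA cells with at least 10 neuron-marker UMIs, which held 11 of 57 Trpv2 UMIs), the neutrophil ratio down to 1.53 and the endothelial ratio up to 0.974. With 1 library a group the difference between these ratios was not tested.

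The barcodes left out for more than 1% hemoglobin UMIs (3178 PBS and 339 CFA barcodes) also held channel UMIs, above the limit that a count of 0 allows (0.190 and 0.762 CPM). In the PBS library they had 57.7 CPM of Piezo1, 18.2 of Piezo2, 10.6 of Trpv2, 8.81 of Trpv4, 69.1 of Trpm7 and 6.40 of Trpc6. In the CFA library they had 35.8 CPM of Piezo1, 6.86 of Piezo2, 9.15 of Trpv2 and 57.2 of Trpm7.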

How the results depend on the processing

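No paired analysis was possible because each condition is 1 library and no test was run. Of the 39 pairs, 7 were past 2-fold as reported. The count was 4 of 39 with a mitochondrial limit of 20%, 4 of 31 for counts merged without integration, 4 of 32 with 50 principal components, 2 of 29 with classes set cell by cell, 11 of 39 without the 5% highest doublet scores, 1 of 21 after thinning, 13 of 39 at a fold of 1.5 and 4 of 34 with a floor of 50 UMIs. The background of 13.8% of all gene and class pairs holds for the reported setting only. The share over all genes is not given for the other settings, so their counts cannot be set against a background. The Piezo2 ratio in Schwann-like cells (0.661) was 0.924 with no hemoglobin limit and 1.06 with the 20% mitochondrial limit. The Trpv4 ratio in chondrocyte-like cells (0.918) was 0.702 with classes set cell by cell and 1.41 after thinning. The Trpc6 ratio in mural-like cells (1.44) ran from 1.27 to 1.83 over the alternatives, with 1.83 under no hemoglobin limit and 1.78 without integration. The Trpm7 ratio in osteoblast and osteocyte-like cells (0.788) was 1.11 with classes set cell by cell, and the Piezo1 ratio in satellite cell-like cells (1.09) was 3.68 after thinning. The Trpv4 ratio in fibroblast-like cells (0.417) turned to 1.54 with classes set cell by cell. The cause of these shifts was not tested. Leaving out cells with neuron or endothelial markers, chosen after seeing the data, gave 6 and 8 pairs. No library could be left out, and the intervals cover counting error, not differences between animals.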
